A study of Mus musculus with 6 samples.

Results

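The genes described here encode the proteasome, the protease that degrades ubiquitin-tagged proteins. They were chosen by name alone: protein-coding genes of the count table whose symbol begins with Psm, a letter from a to f and a digit. This gave 46 of 54532 genes. Of the 46, 14 encode the constitutive core particle (7 alpha subunits, 4 beta subunits without a catalytic site and 3 catalytic beta subunits) and 3 encode the inducible catalytic subunits of the immunoproteasome. Another 17 encode the regulatory particle (6 ATPases and 3 other subunits of the base, and 8 of the lid). The remaining 12 are 3 assembly chaperones of the regulatory particle (Psmd5, Psmd9 and Psmd10), 4 genes of the 11S activators, the activator gene Psme4, the inhibitor gene Psmf1, the tissue-restricted Psma8 and Psmb11, and Psmc3ip. Psmc3ip meets the name rule, but its product works in meiotic recombination and is no proteasome subunit. RNA was sequenced from mouse Glu-tag cells, an enteroendocrine line in which the study models neuroendocrine tumours of the small intestine. The groups were 3 libraries of cells with a control hairpin, labelled wild type, and 3 of cells with a stable hairpin against Irs2, labelled knockdown. The labels name no drug, dose or time and do not say whether each stable line is a pool or 1 clone.

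The proteasome core is a barrel of stacked rings: alpha rings form the gate at either end and beta rings hold the active sites inside. The regulatory particle caps the barrel. Its lid removes ubiquitin chains, and its base holds ubiquitin receptors and the ATPases that unfold the protein and thread it in. Interferon signalling induces Psmb8, Psmb9 and Psmb10, which take the places of Psmb5, Psmb6 and Psmb7 in newly built cores and shift the peptides cut for display on MHC class I. The transcription factor NRF1, encoded by Nfe2l1, is known for raising subunit genes together when proteasome activity is short.

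Promoter windows are shown for 5 members on which the results below turn: Psme3, Psmd1 and Psmd12, which were higher in the libraries numbered 2; Psme2, which was lower there; and Psmb9, which had the lowest level. Each runs from 250 bases before to 50 bases after the gene start in RefSeq (GRCm38.p6, the mm10 build), read 5′ to 3′ on the strand of the gene. Capitals mark matches, on either strand, to the antioxidant response element core TGACNNNGC, the CCAAT box CCAAT, the ETS site CCGGAAGT, the GAS element TTCNNNGAA and the GC box GGGCGG. Overlapping matches are merged. The windows lie at chr11:101315963-101316262 (Psme3, plus strand), chr1:86064369-86064668 (Psmd1, plus), chr11:107479278-107479577 (Psmd12, plus), chr14:55591052-55591351 (Psme2, minus) and chr17:34187281-34187580 (Psmb9, minus). The RefSeq start lies 232 bases from the start listed in the count table for Psmd1 and 434 bases from it for Psmb9, and within 44 bases for the other 3.
Psme3: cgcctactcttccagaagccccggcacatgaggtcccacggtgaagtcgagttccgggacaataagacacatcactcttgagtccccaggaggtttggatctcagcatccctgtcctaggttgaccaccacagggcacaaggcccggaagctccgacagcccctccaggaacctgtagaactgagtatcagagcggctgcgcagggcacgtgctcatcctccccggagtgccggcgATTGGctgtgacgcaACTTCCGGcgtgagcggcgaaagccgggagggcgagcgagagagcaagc
Psmd1: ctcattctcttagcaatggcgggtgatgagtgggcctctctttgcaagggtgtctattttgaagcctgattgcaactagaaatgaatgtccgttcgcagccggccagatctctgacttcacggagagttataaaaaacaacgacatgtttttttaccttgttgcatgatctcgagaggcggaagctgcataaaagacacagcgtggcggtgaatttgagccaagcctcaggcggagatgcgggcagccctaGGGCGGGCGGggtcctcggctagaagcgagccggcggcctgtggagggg
Psmd12: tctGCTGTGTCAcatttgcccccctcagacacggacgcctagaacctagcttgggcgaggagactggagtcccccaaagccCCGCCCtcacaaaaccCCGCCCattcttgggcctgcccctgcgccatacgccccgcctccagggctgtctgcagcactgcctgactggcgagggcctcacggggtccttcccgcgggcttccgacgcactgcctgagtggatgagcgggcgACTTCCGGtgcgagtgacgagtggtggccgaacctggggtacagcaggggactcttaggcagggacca
Psme2: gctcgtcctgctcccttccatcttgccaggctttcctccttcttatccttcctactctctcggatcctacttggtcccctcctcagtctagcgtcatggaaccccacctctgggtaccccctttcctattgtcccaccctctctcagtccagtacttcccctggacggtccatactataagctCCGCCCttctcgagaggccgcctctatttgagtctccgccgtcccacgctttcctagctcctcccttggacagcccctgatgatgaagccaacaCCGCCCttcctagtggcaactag
Psmb9: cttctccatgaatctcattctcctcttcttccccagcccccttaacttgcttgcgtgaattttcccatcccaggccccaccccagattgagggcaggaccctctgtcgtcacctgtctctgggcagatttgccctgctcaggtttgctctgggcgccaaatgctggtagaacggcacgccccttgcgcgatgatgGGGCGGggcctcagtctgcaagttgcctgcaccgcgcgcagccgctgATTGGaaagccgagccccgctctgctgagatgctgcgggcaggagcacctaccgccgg

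The Psme3 and Psmd12 windows each hold an ETS site, Psmd12 also holds the antioxidant response element core, and Psmd1, Psmd12 and Psme2 each hold a pair of GC box matches. A RefSeq window was matched by symbol for 39 of the 46 genes. The ETS site was in 7 of these 39 windows (17.9%), against 3.89% of all 32851 promoter windows: Psmc1, Psmc2, Psmd6, Psmd12, Psmd13, Psme3 and Psme4. The GC box was in 22 (56.4%), against 35.7% of all windows. The other motifs were near their share in all windows: the antioxidant response element core in 6 (15.4%, against 12.4%), the CCAAT box in 15 (38.5%, against 37.4%) and the GAS element in 2, Psmb8 and Psmd2 (5.13%, against 8.3%). A match describes letters and is not a binding site.

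Libraries held 14991019 to 19790073 counts, a ratio of 1.32 between the deepest and the shallowest. Irs2, the targeted gene, was not lower under the knockdown label: control libraries held 31.6, 22.7 and 34.3 CPM (a gene's counts scaled to a library of 1000000 counts) and libraries labelled shIRS2 held 31.4, 28.6 and 38.7 CPM. The exact two-sided permutation p was 0.6, where 0.1 is the smallest that 3 against 3 allows, so directions below are those of the libraries labelled shIRS2. Markers of the labelled cell type were mostly absent. Gcg, Chga, Neurod1 and Pcsk1 had 0 counts in all 6 libraries and 9 of the 11 markers had at most 20 counts in all, while Pax6 (19.8 to 27.3 CPM) and Nkx2-2 (2.49 to 4.07 CPM) were present. The immune cell markers Cd3e, Itgam and Adgre1 had 0 counts in all libraries, while Lyz2 was at 1.92 to 2.68 CPM and passed the filter, and Cd74 was at 0.152 to 0.548 CPM. The 5 fibroblast markers summed to 574 to 944 CPM, nearly all of it Col3a1 and Pdgfra.

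Of the 46 genes, 44 passed the filter on low counts. The exceptions were Psma8, an alpha subunit of the testis, and Psmb11, the catalytic subunit of the thymus. Both had 0 counts in every library, which allows a level of up to 0.0295 CPM if 3 counts over all 6 libraries are taken as the limit. The 44 genes together took 0.741%, 0.739% and 0.694% of the counts of control libraries 1, 2 and 3, and 0.681%, 0.699% and 0.680% of those labelled shIRS2.

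Core subunit genes had the highest median level of the families in FPKM, the deposited value per length of the gene model. The order of genes by FPKM depends on the listed lengths, which ran from 837 bases (Psme2b) to 8382 bases (Psme4) among the 44 genes. The median core gene was at 77.3 FPKM and the range ran from 41.1 to 181, as means of 6 libraries. In the alpha ring, Psma6 led with 183, 196 and 173 FPKM in control libraries 1, 2 and 3 and 183, 178 and 172 in those labelled shIRS2. Psma5 followed with a mean of 168 ± 8.77 FPKM (SD, n = 6). Psma1 was the lowest alpha gene, at 41.3, 40.7 and 42.4 FPKM in the controls and 42.5, 40.0 and 41.1 under shIRS2, and its libraries differed little. The other alpha genes, Psma2, Psma3, Psma4 and Psma7, had means from 44.3 to 71.6 FPKM.

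Beta subunits without a catalytic site reached similar levels. Psmb4, the highest of them, held 197, 171 and 173 FPKM in the controls and 160.2, 173 and 185 under shIRS2. Psmb2 and Psmb3 had means of 97.7 and 93.8 FPKM. Psmb1 was the lowest of the 4, at 64.4, 61.2 and 59.3 FPKM in the controls and 60.6, 60.7 and 60.4 under shIRS2. The 3 constitutive catalytic genes, whose products enter the core in equal number, had means of 108 (Psmb5), 83.0 (Psmb6) and 41.1 FPKM (Psmb7). Psmb5, with the chymotrypsin-like site, held 122, 98.8 and 110.4 FPKM in the controls and 100.1, 105 and 112 under shIRS2. Psmb6, with the caspase-like site, held 101, 85.1 and 78.5 FPKM against 75.8, 74.0 and 83.3. Psmb7, with the trypsin-like site, held 43.6, 49.4 and 37.8 FPKM against 38.7, 40.4 and 36.7. In FPKM every library had Psmb5 above Psmb6 and Psmb6 above Psmb7. The listed lengths of these genes are 899, 1872 and 3421 bases. In CPM, without division by length, this order did not hold: the means were 97.6 for Psmb5, 156 for Psmb6 and 141 for Psmb7. Nek6, which overlaps Psmb7 on the other strand, had 45.6% as many counts, and the strand setting of the counting is not given in the sources used here, so the Psmb7 level is uncertain.

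**Figure D1:**
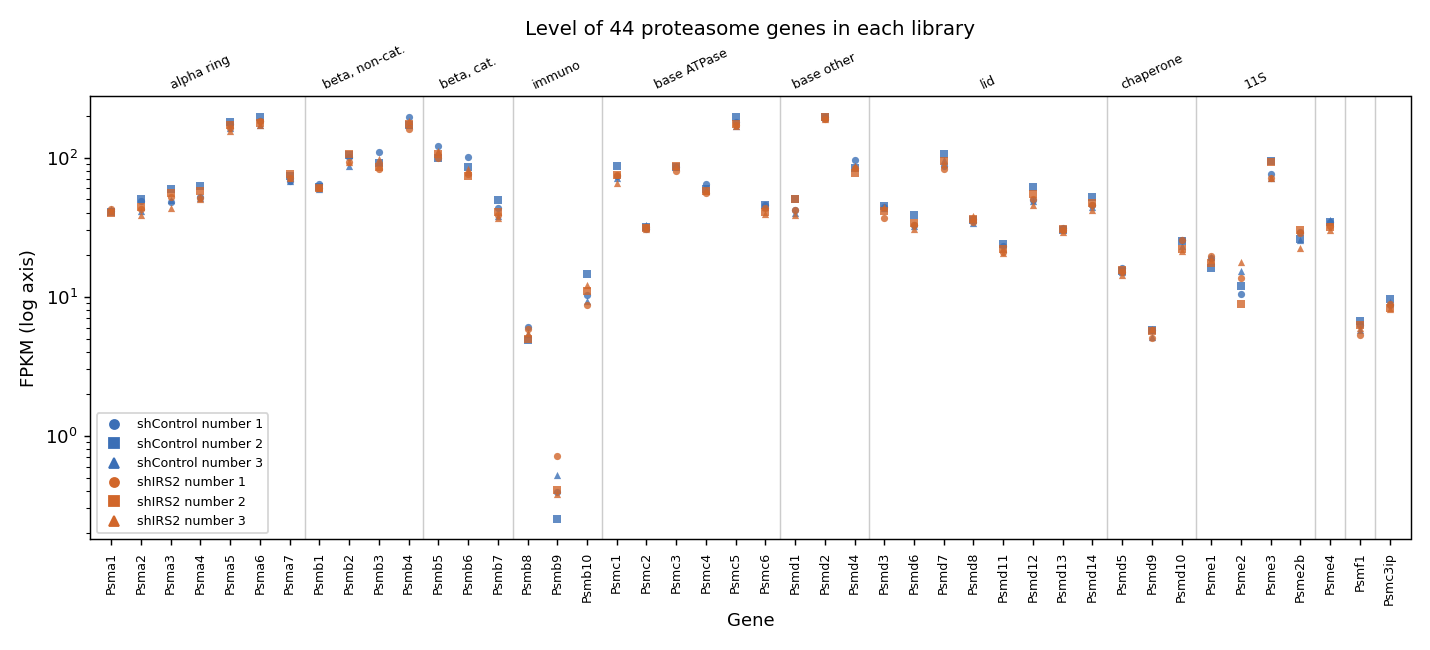
FPKM (log axis) of the 44 proteasome genes that passed the filter, by class, with 1 point per library coloured by hairpin group and shaped by replicate number. Core and regulatory genes lie between 20.7 and 197 FPKM, and Psmb8, Psmb9 and Psmb10 lie at or below 14.5 FPKM.

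The regulatory particle had the highest single gene but a lower middle. Psmd2, the base subunit that anchors ubiquitin receptors and shuttles, had the highest mean level over the 6 libraries, at 196, 196 and 192 FPKM in the controls and 188, 196 and 188 under shIRS2. Its range overlapped that of Psma6, next in the order, and Psmb4 was above it in control library 1 and Psma6 in control library 2. The median over the 17 regulatory genes was 46.2 FPKM. Among the ATPases, Psmc5 was highest at 179, 195 and 169 FPKM against 172, 176 and 169.6, and Psmc2 lowest at 30.9, 31.9 and 32.7 against 31.5, 31.4 and 30.7. Psmc1, Psmc3, Psmc4 and Psmc6 had means from 43.2 to 85.3 FPKM. The ranges of Psmc5 and Psmc2 did not overlap, though each ATPase ring holds 1 copy of each product. Their listed lengths are 1394 and 5031 bases, and without division by length their means were closer, at 247 and 159 CPM. In the base, the ubiquitin receptor gene Psmd4 had a mean of 85.9 ± 5.91 FPKM (SD, n = 6), and Psmd1, the other scaffold beside Psmd2, held 42.3, 50.7 and 39.9 FPKM against 42.1, 50.2 and 38.9. In the lid, Psmd7 was highest with 87.7, 105.8 and 95.6 FPKM against 83.4, 95.01 and 89.3; its product is the partner of the deubiquitinase Psmd14, which had a mean of 46.2 FPKM. Psmd11 was the lowest lid gene at 23.1, 23.8 and 22.0 FPKM against 21.1, 22.2 and 20.7.

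Genes of the activators, chaperones and the inhibitor lay lower, with 1 exception. Psme3, which encodes the nuclear 11S activator PA28 gamma, held 76.8, 95.2 and 71.5 FPKM in the controls and 71.0, 93.1 and 71.4 under shIRS2. Psme1 and Psme2 encode the interferon-inducible PA28 alpha and beta; Psme1 had a mean of 18.3 ± 1.29 FPKM (SD, n = 6). Psme2 held 10.4, 12.0 and 15.2 FPKM against 13.7, 8.79 and 17.7, a wider spread than Psme1. Psme2b is a near copy of Psme2, at 29.3, 25.97 and 25.7 FPKM against 28.7, 30.3 and 22.3, and the split of reads between these copies is uncertain. Psme4, the gene of the large activator PA200, had 34.6, 34.2 and 35.8 FPKM against 32.4, 31.8 and 30.4. Psmf1, the gene of the inhibitor PI31, had 6.21, 6.73 and 5.72 FPKM against 5.33, 6.28 and 5.93. Among the chaperones, Psmd10 was highest with 25.6, 25.02 and 23.1 FPKM against 25.6, 21.9 and 21.4, and Psmd9 lowest with 5.75, 5.74 and 5.14 against 5.08, 5.70 and 5.87. Psmc3ip had 8.75, 9.58 and 9.12 FPKM against 8.91, 8.29 and 8.21; Mlx, which overlaps it on the other strand, had 319% as many counts. In the order of all 44 levels, 6 of 43 neighbouring genes had ranges over libraries that did not overlap, among them Psma5 and Psmb5.

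The immunoproteasome genes stood well below their constitutive counterparts. Psmb8 (ENSMUSG00000024338, chr17:34197721-34201454, plus strand) and Psmb9 (ENSMUSG00000096727, chr17:34181988-34187764, minus) lie near each other in mm10, and Psmb10 (ENSMUSG00000031897) lies at chr8:105935735-105938444 on the minus strand. Psmb10, the inducible counterpart of Psmb7, held 10.3, 14.5 and 9.36 FPKM in the controls and 8.78, 10.98 and 12.1 under shIRS2. Psmb8, which replaces Psmb5, held 6.08, 4.89 and 5.40 FPKM against 5.90, 4.99 and 5.46. Psmb9, which replaces Psmb6, held 0.392, 0.250 and 0.520 FPKM against 0.719, 0.405 and 0.382, from 165 counts in all 6 libraries. No library had an immunoproteasome gene at the level of its counterpart. As ratios of FPKM within a library, Psmb8 stood at 5.05% ± 0.421 of Psmb5, Psmb9 at 0.550% ± 0.233 of Psmb6 and Psmb10 at 26.8% ± 3.85 of Psmb7 (SD, n = 6). These ratios depend on the listed lengths: 2736 bases for Psmb8 and 899 for Psmb5, but 1705 for Psmb10 and 3421 for Psmb7. Mean CPM was 15.0 for Psmb8 beside 97.6 for Psmb5, and 18.8 for Psmb10 beside 141 for Psmb7. Without division by length, Psmb10 was thus no closer to its counterpart than Psmb8 was. The ratio of Psmb10 to Psmb7 was 25.9% ± 3.01 in the controls and 27.6% ± 5.09 under shIRS2 (SD, n = 3 each), and that of Psmb8 to Psmb5 was 4.95% ± 0.0493 and 5.16% ± 0.636. That of Psmb9 to Psmb6 was 0.448% ± 0.191 and 0.652% ± 0.262. Group means differed by less than the larger SD for each of the 3 ratios. Psmb9 shares 212 bases with Tap1 on the other strand, which held 665% as many counts, so its level is uncertain.

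No proteasome gene was called between the hairpin groups. The edgeR quasi-likelihood test, adjusted by Benjamini-Hochberg over all 13472 genes tested at a threshold of 0.05, called 0 of the 44 genes and 0% of all genes. Its only term was the hairpin group, without pairing by replicate number. At an unadjusted p under 0.05 it had 0 of the 44, against 1.94% of all genes. DESeq2, limma-voom and limma on log2(FPKM + 1) also called 0 of the 44. The estimates were narrow. Over the 44 genes the median half-width of the 95% interval was 0.22 on the log2 scale, against 0.32 over all genes. The interval left out a 2-fold change in either direction for 43 genes, all but Psmb9, against 11747 of all 13472 genes. It left out a 1.5-fold change for 42, against 9160 of all genes. The 44 genes also had a higher level, with a median of 44.2 FPKM against 6.50 over all genes tested. Their intervals were not compared with those of genes of like level. These bulk values cannot tell less RNA per cell from fewer cells of a type.

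The log2 fold changes of the proteasome genes were mostly small and negative. They were below 0 for 37 of the 44 genes (84.1%), against 50.1% of all genes tested, with a median of -0.06 against 0.00. The count below 0 was 36 to 38 under other scalings and 30 to 38 with single libraries left out, lowest without control library 2. By family, 13 of 14 core genes and 16 of 17 regulatory genes were below 0, with medians of -0.06 and -0.08, while 1 of the 4 genes of the 11S activators was. Psma7 and Psmd8 were the core and regulatory genes above 0, at 0.06 and 0.03. All these genes were measured in the same 6 libraries and may vary together. Counts of signs, here and within pairs below, are thus not independent observations and are no test of the hairpin. The core share of counts was 0.285%, 0.274% and 0.256% in control libraries 1, 2 and 3, and 0.254% to 0.259% under shIRS2.

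**Figure D2:**
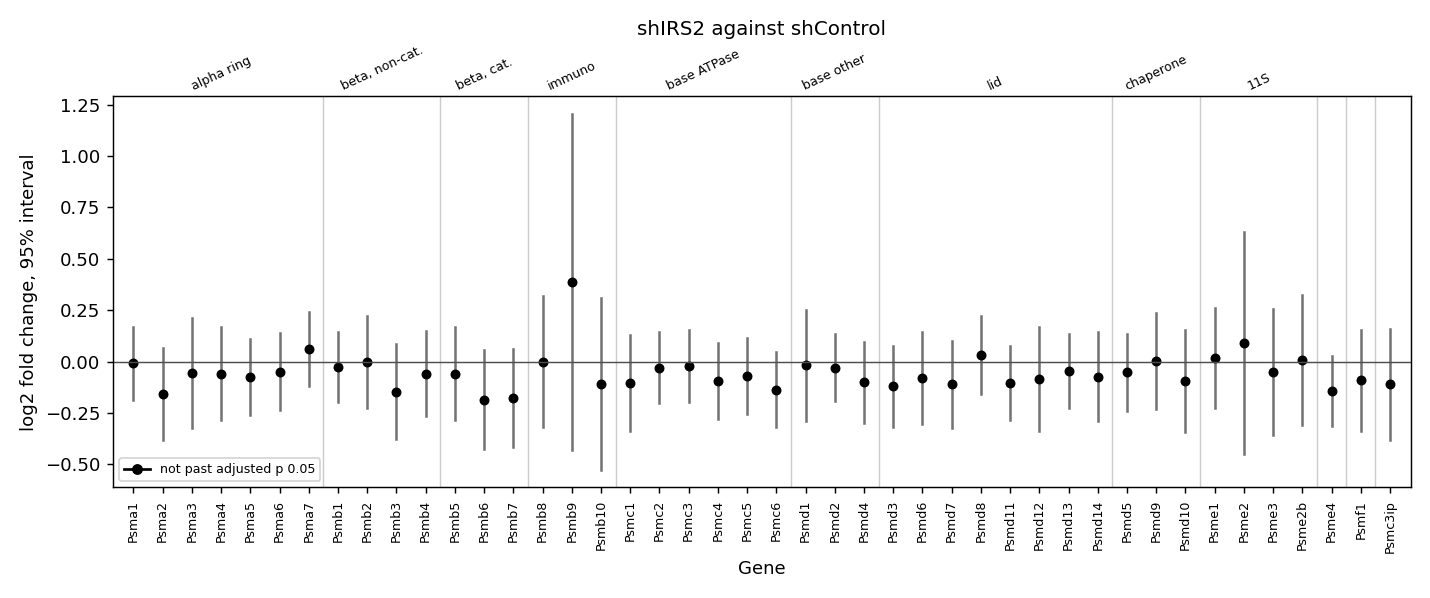
Log2 fold change of shIRS2 over shControl for 44 proteasome genes by class, points with 95% intervals from edgeR. Most points lie just below 0, 37 of 44, and each interval crosses 0.

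The 3 genes with the smallest p between hairpin groups were Psme4, Psmb6 and Psmc6. Psme4 held 296, 284 and 302 CPM in control libraries 1, 2 and 3 and 274, 263 and 256 CPM in those labelled shIRS2. All 3 controls were above all 3 libraries labelled shIRS2, and the log2 fold change was -0.14 (95% interval -0.31 to 0.03, edgeR adjusted p of 1). Psmc6, an ATPase gene, showed the same order with 164, 159 and 156 CPM against 153, 139.1 and 139.4 CPM and a log2 fold change of -0.14 (95% interval -0.32 to 0.04). Psmb6 held 194, 158 and 148 CPM against 143, 136.5 and 157 CPM; its control library 1 stood apart and the groups overlapped, with a log2 fold change of -0.18 (95% interval -0.43 to 0.06). In plain CPM the groups did not overlap, with shIRS2 lower, for 5 of the 44 genes (Psmd2, Psme4, Psmc6, Psmd11 and Psmc4), which is 11.4% against 3.77% of all genes, and with shIRS2 higher for 0, against 2.75% of all genes. After TMM scaling 3 of these 5, Psme4, Psmc6 and Psmc4, were still apart, against 3.09% of all genes lower and 3.26% higher, where again 0 of the 44 were.

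The 4 genes with the lowest shIRS2 to control ratios in the first pair of libraries belong to the beta ring. Of the other constitutive beta genes, Psmb1, Psmb2 and Psmb7 had log2 ratios of -0.11, -0.15 and -0.20 in that pair. The lid gene Psmd3 was lower than these, at -0.28. Between the libraries numbered 1, the plain log2 ratio of CPM was -0.44 for Psmb6, -0.44 for Psmb3, -0.32 for Psmb4 and -0.31 for Psmb5, whereas between those numbered 3 it was 0.08, 0.07, 0.09 and 0.02. Psmb5 held 112, 88.2 and 100.1 CPM in the controls and 90.6, 93.4 and 101.5 under shIRS2. Control library 1 was the highest for each of these 4 genes, and without it the log2 fold change of Psmb5 was 0.02. Psmb7 held 153, 168 and 130.5 CPM in the controls and 133, 136 and 126 under shIRS2; it was lower under shIRS2 in every pair, while the groups overlapped. The median log2 ratio over the 44 genes was -0.10, -0.10 and -0.04 in pairs 1, 2 and 3, against -0.02, -0.01 and 0.00 over all genes. The ratio was negative in all 3 pairs for 19 genes (43.2%), against 17.5% of all genes, and positive in all 3 for 1 (2.27%), against 13.6% of all genes. That gene was Psma7, whose CPM was 213, 225 and 212 in the controls and 222, 231 and 220.3 under shIRS2.

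Among the immunoproteasome genes, Psmb8 held 17.0, 13.3 and 14.9 CPM in the controls and 16.2, 13.5 and 15.0 under shIRS2, with a log2 fold change of 0.00 (95% interval -0.32 to 0.32). Psmb10 held 18.0, 24.6 and 16.1 CPM against 15.1, 18.4 and 20.7, a log2 fold change of -0.11 (-0.53 to 0.31). Psmb9 held 1.47, 0.910 and 1.92 CPM against 2.65, 1.46 and 1.405, with 0.39 (-0.43 to 1.20). The groups overlapped for each of the 3, and the interval of Psmb9 is too wide to leave out a 2-fold rise.

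With the replicate number of the titles as a block, the edgeR test again called 0 of the 44 genes, against 0.00742% of all genes, which is 1 gene. At an unadjusted p under 0.05 it had 5 of the 44 (11.4%), against 9.16% of all genes, a share near that of all genes. These were Psmb7, Psma2, Psme4, Psmc6 and Psmb6, each lower under shIRS2, with log2 fold changes from -0.18 to -0.14. Psma2, an alpha gene, held 183, 184 and 153 CPM in the controls and 159, 159 and 143 under shIRS2, a lower value in every pair.

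**Figure D3:**
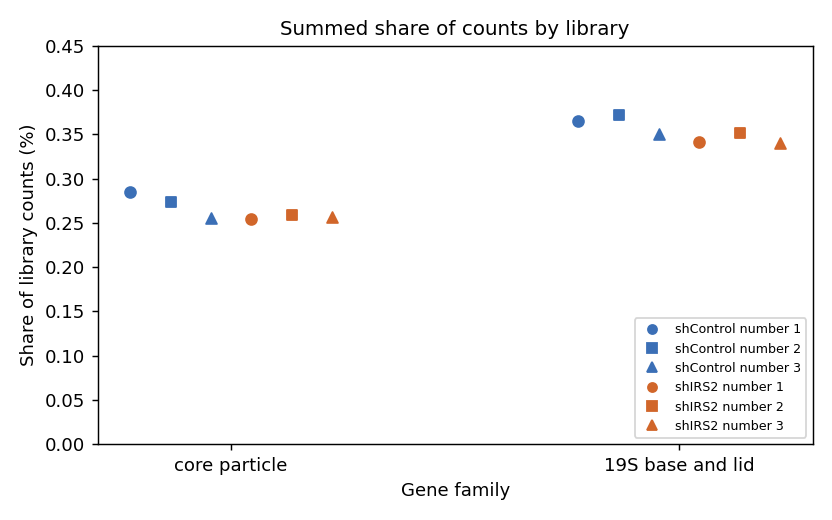
Share of each library's counts (%) taken by the 14 core genes and by the 17 regulatory genes, 1 point per library. Control libraries 1 and 2 have the highest core shares, 0.285% and 0.274%, and control library 3 at 0.256% lies among the libraries labelled shIRS2 (0.254% to 0.259%).

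More proteasome genes were called by the number in the title than by hairpin. The edgeR F-test over the 3 numbers, with the hairpin group as a term, called 5 of the 44 proteasome genes (11.4%), against 19.6% of all genes: Psma3, Psmd1, Psmd12, Psme2 and Psme3. In the contrast of number 2 with the mean of numbers 1 and 3, 5 of the 44 (11.4%) were higher in number 2, against 11.6% of all genes, and 1 (2.27%) was lower, against 11.9% of all genes. The higher count is thus that of genes in general. The labels do not say what the numbers stand for.

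Psme3 had the smallest p in that contrast. It held 232, 279 and 213 CPM in control libraries 1, 2 and 3 and 211, 271 and 212 CPM in those labelled shIRS2, so both libraries numbered 2 were above the other 4. It rose by 0.37 on the log2 scale in number 2 (95% interval 0.25 to 0.50, edgeR adjusted p = 0.000569). Psmd1, the scaffold of the base, held 314, 366 and 292 CPM against 308, 359.5 and 284 CPM, and again both libraries numbered 2 were above the rest. Its rise was 0.31 (95% interval 0.18 to 0.43, edgeR adjusted p = 0.00175). Of the lid genes, Psmd12, which helps to hold the lid together, held 135, 162 and 129.7 CPM against 135, 143 and 122 CPM, a rise of 0.25 (0.11 to 0.40, edgeR adjusted p = 0.0132). The alpha genes Psma3 and Psma4 were also higher. Psma3 held 190.4, 230.3 and 196 CPM against 203, 215 and 170.4 CPM, with 0.26 (0.11 to 0.41, edgeR adjusted p = 0.0153), and Psma4 held 127, 146 and 123 CPM against 122, 134 and 121 CPM, with 0.21 (0.08 to 0.35, edgeR adjusted p = 0.0272). Both were highest in the libraries numbered 2 in each hairpin group.

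Leaving out either library numbered 2 lowered the number of calls, among the proteasome genes and among all genes. Psme3 was called higher with either of them left out. Without control library 2 it was the 1 gene called higher, against 3.16% of all genes, and without shIRS2 library 2 there were 2, Psme3 and Psmb10, against 3.88%. The log2 contrasts of the genes no longer called stayed above 0: without control library 2 and without shIRS2 library 2 they were 0.31 and 0.31 for Psmd1, 0.24 and 0.28 for Psma3, 0.18 and 0.32 for Psmd12, and 0.17 and 0.26 for Psma4. Genes called higher numbered 10 without shIRS2 library 1, against 13.5% of all genes, and 8 without shIRS2 library 3, against 12.9%. The F-test called 1 proteasome gene without control library 2, against 5.83% of all genes, and 0 without shIRS2 library 2, against 7.05%. It called 10 without control library 1, against 27.4%, 13 without shIRS2 library 1, against 26.5%, and 8 without shIRS2 library 3, against 25% of all genes.

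By class, all 8 lid genes had a log2 contrast above 0 for number 2, with a median of 0.12, and 6 of 7 alpha genes did, with a median of 0.11. Over the 44 genes 29 were above 0 and the median was 0.04, against 0.00 over all genes tested. The catalytic genes differed from each other in this contrast: Psmb5 was at -0.12, Psmb6 at -0.09 and Psmb7 at 0.19. In edgeR none was called, with 1, Psmb7, at an unadjusted p under 0.05. Of the ATPase genes edgeR called 0 of 6, with 1 at an unadjusted p under 0.05, and their median was 0.02. Over the 44 genes 15 (34.1%) had an unadjusted p under 0.05, against 35.9% of all genes, so the shares are close.

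**Figure D4:**
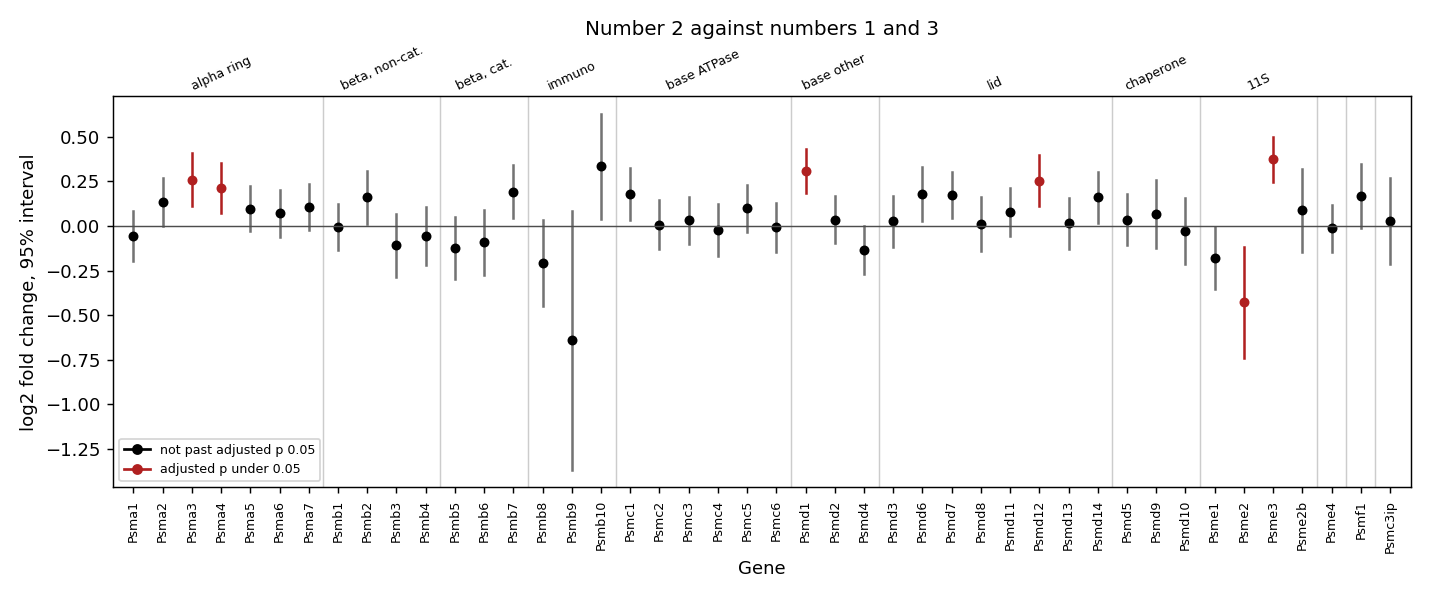
Log2 contrast of number 2 with the mean of numbers 1 and 3 for the 44 proteasome genes by class, with 95% intervals from edgeR; red marks an adjusted p under 0.05. Psma3, Psma4, Psmd1, Psmd12 and Psme3 lie above 0, Psme2 lies below 0, and Psmb9 and Psmb10 lie on opposite sides at -0.64 and 0.33.

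Psmb8, Psmb9, Psmb10, Psme1 and Psme2 are the 5 proteasome genes that interferon is known to induce. In number 2, 4 of them had a contrast below 0, against 50.6% of all genes tested. Of the 5, 1 was called lower, against 11.9% of all genes. Psme2 held 18.8, 21.0 and 27.1 CPM in the controls and 24.3, 15.3 and 31.4 CPM under shIRS2, and fell by 0.43 on the log2 scale in number 2 (95% interval -0.74 to -0.12, edgeR adjusted p = 0.0478). Control library 2 lay above control library 1, and the contrast ran from -0.83 without control library 2, where it was called, to -0.07 without shIRS2 library 2, where it was not. The call was also lost in DESeq2 and in the fit with no hairpin term, although the contrast was -0.43 in both. Without shIRS2 library 1 it was -0.31 and not called, and Psmb3, Psmb5 and Psmd4 were the 3 genes called lower, against 13.5% of all genes. Without shIRS2 library 3 there were 2 called lower, Psme2 and Psmb9, against 13.1%. Its partner Psme1 held 43.0, 35.4 and 43.2 CPM against 43.3, 38.1 and 40.6 CPM, lowest in both libraries numbered 2, at -0.18 (95% interval -0.36 to -0.00, edgeR adjusted p = 0.129). Psmb8 was likewise lowest in both, at -0.21 (-0.45 to 0.03), and Psmb9 was at -0.64 (-1.37 to 0.08). Psmb10 went the other way at 0.33 (0.04 to 0.63), with an edgeR adjusted p of 0.0931. With single libraries left out it ran from 0.08 without control library 2 to 0.56 without shIRS2 library 2, and it was called without shIRS2 library 2, without shIRS2 library 3 (0.50) and with no filter on low counts (0.34).

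Genes that load the peptides onto MHC class I, downstream of the immunoproteasome, were among those called lower in number 2. Of 22 genes on the list of interferon signalling and antigen presentation, 21 were tested; 7 were called lower and 1, Ifngr2, higher, against 11.9% and 11.6% of all genes, and the median was -0.14. The class I heavy chain genes H2-K1 and H2-D1 fell by 0.56 and 0.43 on the log2 scale (edgeR adjusted p = 0.000166 and 0.000376). Tapbp, the gene of the chaperone tapasin, fell by 0.44 (edgeR adjusted p = 0.000353), and Tap2, of the peptide transporter, by 0.61 (edgeR adjusted p = 0.000845). Tap2 held 30.4, 20.0 and 29.5 CPM in the controls and 27.7, 18.9 and 33.98 under shIRS2. Chosen after their values were seen, Tap1 fell by 0.67, Stat2 by 0.47 and B2m by 0.24, and Nlrc5, the class I transactivator gene, was at -0.11 with an edgeR adjusted p of 0.584. Between hairpin groups 0 of the 21 were called in edgeR, with 0 at an unadjusted p under 0.05, against 1.94% of all genes. Log2 fold changes were above 0 for 15 and below 0 for 6. With the replicate block edgeR again called 0, with 5 of the 21 at an unadjusted p under 0.05, against 9.16% of all genes. The ratio was positive in all 3 pairs for 7 genes, against 13.6% of all genes, and negative in all 3 for 2, against 17.5%. Of the 3 fibroblast markers tested, Pdgfra was called lower in number 2, at -0.67, while Col3a1 at -0.26 and Col1a2 at 0.35 were not called. The 5 fibroblast markers summed to 574 and 800 CPM in the libraries numbered 2 and 609 to 944 CPM in the others. The immune cell markers summed to 2.73 and 2.86 CPM in the libraries numbered 2 and 2.20 to 3.13 CPM in the others. Control library 2 was the deepest. The part of depth or of these cell types in the result was not tested.

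**Figure D5:**
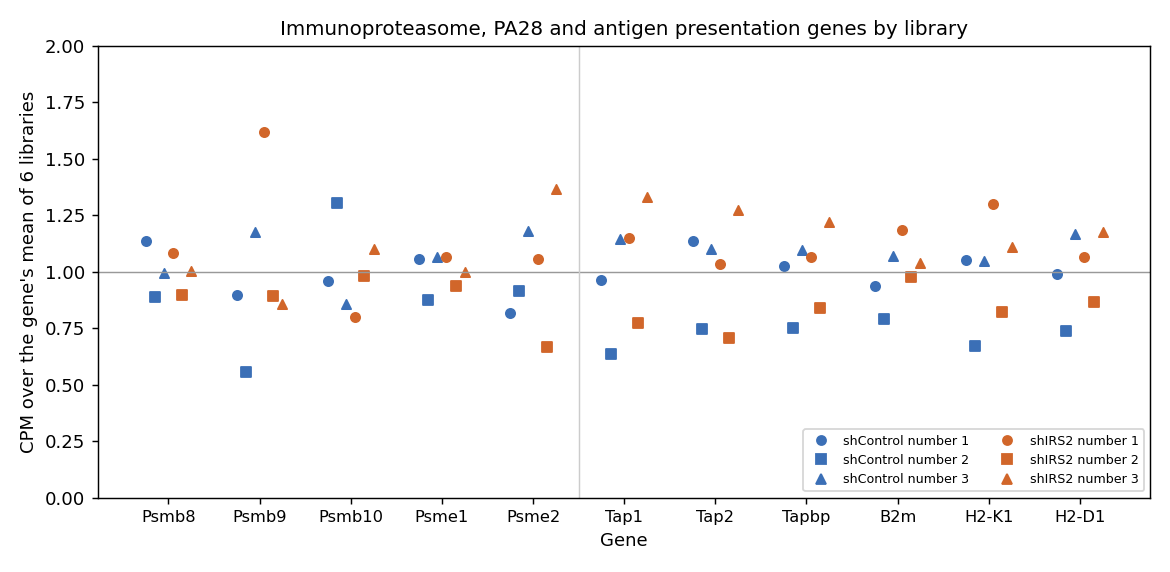
CPM in each library divided by that gene's mean over 6 libraries, for the immunoproteasome, PA28 and antigen presentation genes, coloured by hairpin group and shaped by number. Both libraries numbered 2 (squares) are the lowest of their hairpin group for Tap1, Tap2, Tapbp, B2m, H2-K1, H2-D1, Psme1 and Psmb8, and Psmb10 in control library 2 is the highest of its 6.

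Numbers 1 and 3 differed less. Number 3 against number 1 called 0 of the 44 genes in edgeR, against 0.238% of all genes, and DESeq2 and limma-voom also called 0. At an unadjusted p under 0.05 there were 3 (6.82%), against 10.3% of all genes: Psma2 at -0.20, Psme2 at 0.44 and Psme2b at -0.27 on the log2 scale. Psme2b held 25.1, 21.6 and 21.7 CPM in the controls and 24.2, 25.02 and 18.8 CPM under shIRS2, opposite in sign to its near copy. Without a filter on low counts, 1 of the 44 genes was called. The share of all genes is not given for that fit, so this count has no comparison.

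Genes around the proteasome were called in number 2 at about the share of all genes: 9 of the 42 tested on 5 lists (21.4%), against 23.5% of all genes in either direction. Between hairpin groups edgeR called 0 genes of these lists, and 0 had an unadjusted p under 0.05, against 1.94% of all genes. The 6 assembly factors of the core were all below 0 between hairpin groups, with a median of -0.09. Pomp, the maturation factor of the core, held 142, 144 and 126 CPM in the controls and 116, 128 and 119 under shIRS2, a log2 fold change of -0.17. In number 2 edgeR called 0 of the 6, with 1 at an unadjusted p under 0.05, against 35.9% of all genes. Of 8 proteasome-associated genes, the deubiquitinase gene Uchl5 (0.31, edgeR adjusted p = 0.0062) and the ubiquitin ligase gene Ube3c (0.24, edgeR adjusted p = 0.0119) were higher in number 2 and Zfand5 was lower (-0.21, edgeR adjusted p = 0.0373). Of 9 shuttle factors and p97 genes, Ubqln4 was higher (0.22, edgeR adjusted p = 0.0182), and Vcp, the p97 gene, was at 0.04. None of 8 ubiquitin and activating enzyme genes was called in number 2 in edgeR, with 2 at an unadjusted p under 0.05, against 35.9% of all genes.

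The regulators of proteasome gene transcription did not move as 1 group. Of 11 genes of NRF1 and NRF2 regulation, 3 were called lower in number 2 and 2 higher, against 11.9% and 11.6% of all genes. Nfe2l1, the gene of NRF1, held 173, 153 and 247 CPM in the controls and 217, 169 and 211 under shIRS2. It was lowest in both libraries numbered 2 and fell by 0.36 on the log2 scale (edgeR adjusted p = 0.0191). Nfe2l2, of NRF2, fell by 0.23 (edgeR adjusted p = 0.0188) and the repressor gene Bach1 by 0.29 (edgeR adjusted p = 0.0112). Mafk, a small Maf partner, rose by 0.63 (edgeR adjusted p = 0.000589) and Fbxw7, a ubiquitin ligase gene for NRF1, rose by 0.31 (edgeR adjusted p = 0.018).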

How the data were processed

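The authors deposited raw read counts per gene and, in a second table, FPKM for the same 6 libraries. Reads were paired, 150 bp and strand-specific per the labels' protocols, and the submitters' processing notes name the build mm10. No source used here gives the aligner, counter or strand setting. FPKM equalled count over gene length over 0.985 to 1.02 times the library total. Columns beginning NC were read as sh-control and those beginning S as sh-IRS2, from the names alone. All adjusted p-values come from edgeR 4.0.16 in R 4.3.3 unless another tool is named: filterByExpr by group, TMM, robust quasi-likelihood tests, Benjamini-Hochberg over 13472 genes, threshold 0.05. The method was tested on simulated data with 2-fold changes, which are larger than the estimates for the proteasome genes. That test does not tell how well smaller changes are found. DESeq2 1.42.0, limma 3.58.1, other scalings, no filter and single libraries left out were alternatives; FPKM took a pseudocount of 1.

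Deviations from the group mean correlated between libraries of the same number (0.326, 0.832 and 0.489 over 9040 genes). The main test between hairpin groups did not pair the libraries by number. The ratios within pairs and the fit with the replicate number as a block did. No label says that the numbers mark a culture or day. The p-values thus reflect how these samples spread, which may be partly technical. Members, classes, gene lists and contrasts were chosen with earlier results of these data known. Values per library were given for catalytic genes, the highest and lowest gene of each class, the 3 smallest p per contrast and the 3 nearest to and furthest from the class median, and up to 4 genes per related list. Promoters come from RefSeq. Of the 46 genes 23 overlap another gene, 6 of them a gene with over 10% of their counts, and 6 proteasome pseudogenes held 12 counts. Counting intervals and limits cover counting error only.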

Additional observations from a re-analysis of the deposited data

How the results depend on the processing

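The call of 0 genes between hairpin groups held under the replicate block (0), all scalings and tools run, each library left out, and without the 2 libraries numbered 2. That setting and leaving out Psmc3ip, which changed no count, were added after seeing the data. The F-test over numbers called 3 genes without the hairpin term and 0 to 13 with single libraries left out. Genes higher in number 2 numbered 1 to 10 with single libraries left out. Genes lower in number 2 numbered 0 in DESeq2, 0 without the hairpin term and 0 to 3 with single libraries left out. Between numbers 1 and 3, 1 gene was called without a filter and 0 to 1 with single libraries left out. The cause of these changes was not tested, though fewer libraries enter each left-out fit. The share of all genes called also moved with single libraries left out, as given above. In the F-test it was 14.6% without the hairpin term, against 19.6% with it. For genes lower in number 2 it was 6.96% in DESeq2 and 9.86% without the hairpin term, against 11.9% as reported. It is not given for number 3 against number 1. The hairpin log2 fold change of Psmb8, near 0, turned positive: 0.0005611 with RLE scaling, 0.004954 without a filter, 0.001318 in DESeq2, 0.008995 in limma-voom and -0.07371 to 0.08071 with single libraries left out. With single libraries left out, that of Psmb5 ran from -0.1324 to 0.01612 and that of Psmb10 from -0.2353 to 0.1077, and Psmb10 was at 0.08134 without both libraries numbered 2. The number 2 contrast of Psmb6 ran from -0.1842 to 0.01215. DESeq2 lost the number 2 calls of Psma4 and Psme2. Depth limits Psmb9, at 165 counts in all.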
